A study of Arabidopsis thaliana with 4 samples.

Results

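Genes that seedlings switch on when oxygen runs short were examined in *bli-1* and Col-0. The group holds 10 genes among 25410 loci measured, and they were represented by 17 probes. They are the wound-responsive family genes AT4G10270 and AT4G33560, the fermentation genes *ADH1* and *PDC1*, the sucrose synthase gene *SUS4*, the phytoglobin gene *HB1*, the cysteine oxidase genes *PCO1* and *PCO2*, and the transcription factor genes *LBD41* and *HRA1*. They were chosen because AT4G10270 has much lower signal in *bli-1* than in Col-0 on these same arrays. They were thus selected on the signals of *bli-1* against Col-0, so their differences between the genotypes are a description and no p-value is given for them. Where the fit called any of them, the count stands beside the share of all genes called, and nothing is read from it.

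In Arabidopsis, transcription factors of ERF group VII (RAP2.12, RAP2.2, RAP2.3, HRE1 and HRE2) switch on the core hypoxia genes. When oxygen is plentiful, plant cysteine oxidases oxidize the cysteine at the amino terminus of these factors, which marks them for breakdown through the N-degron pathway with the ligase PRT6. When oxygen is scarce the factors persist, and the cell turns to sucrose synthase, glycolysis and ethanol fermentation for energy. *PCO1*, *PCO2* and *HRA1* are themselves induced and dampen the response.

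The data were 4 single color Agilent arrays of whole seedlings that were 12 days old and had grown in continuous light on Murashige and Skoog medium with sucrose. Replicates 1 and 2 of the wild type Columbia-0 (Col-0) were compared with replicates 1 and 2 of *bli-1*, a line that carries the T-DNA insertion SAIL_107_D04 in *BLISTER* (*BLI*). No low oxygen treatment or wounding is named for either genotype. The *bli-1* line is a single insertion allele whose seeds germinate late. The methods describe an earlier sowing of *bli-1* to offset this but do not repeat it for the arrays, and the labels count seedling age from germination. The labels do not say whether the replicates were separate cultures, so the spread between them may be technical.

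*BLI* (AT3G23980), the targeted gene, had log2 signals of 9.17 and 8.99 in Col-0 replicates 1 and 2, and of 7.38 and 7.68 in *bli-1*. Its log2 difference was −1.55 (standard error 0.16, adjusted p = 0.082 from limma). One of its probes had a log2 difference of −2.67 and was above background on 1 of the 2 *bli-1* arrays, replicate 2. It read 143.5 intensity units there, and 21 on *bli-1* replicate 1 over a local background of 17. The other probe had −0.42, and the positions of the probes relative to the insertion are not known here. The paper detected no *BLI* transcript in *bli-1* by quantitative PCR on rosette leaves. Between 74.7% and 91.7% of gene spots were well above background, 0 were saturated, and *bli-1* replicate 2 stood apart with a lower quartile of spot intensity of 129.5, where the other arrays had 27 to 29. The 91.7% was on *bli-1* replicate 2, so being above background says less on that array. Both Col-0 arrays and *bli-1* replicate 2 lay on 1 slide, and *bli-1* replicate 1 on the other. The 10 root markers (*CASP1*, *RHD6* and others) and the 8 leaf photosynthesis markers (*RBCS1A*, *CAB1* and others) were above background on all 4 arrays.

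All 10 hypoxia genes were above background on all 4 arrays and lower in *bli-1*. For *LBD41* being above background says little on *bli-1* replicate 2, where its probe read 93, under that array's lower quartile of 129.5. Their log2 differences ran from −2.70 for AT4G33560 to −0.71 for *LBD41*, with a median of −1.84, against −0.01 over all genes and transcripts. At least 1.5-fold lower signal in *bli-1* was found for 10 of 10, against 3.48% of all genes and transcripts. Both *bli-1* arrays lay below both Col-0 arrays for 10 of 10, against 23% of all. Since the choice of the genes used this contrast, nothing further is read from these counts. In RNA of whole seedlings, fewer cells of a type and less RNA per cell cannot be told apart.

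**Figure D1:**
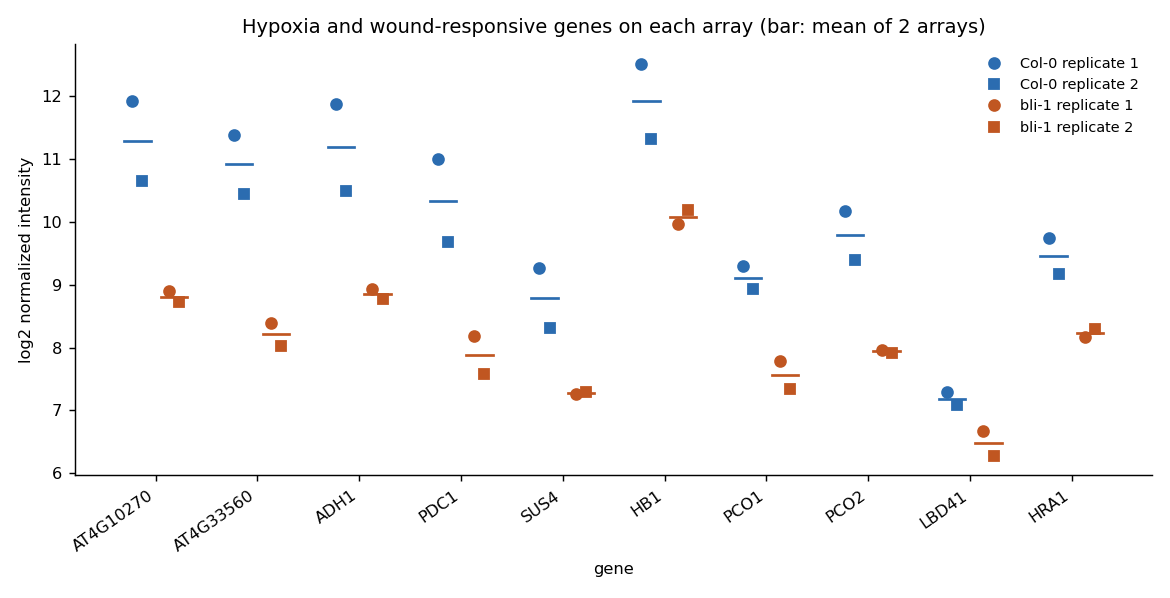
The log2 normalized intensity (y axis) of each of the 10 genes (x axis) is plotted for the 4 arrays, with circles for replicate 1, squares for replicate 2 and bars for the mean of each genotype. The Col-0 points lie above the *bli-1* points for every gene, and the Col-0 circle lies above the Col-0 square for every gene, as with 11.92 against 10.65 for AT4G10270.

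Both wound-responsive genes encode small proteins that carry this family name from wounding. AT4G10270 had a log2 signal of 11.92 in Col-0 replicate 1, 10.65 in Col-0 replicate 2, 8.90 in *bli-1* replicate 1 and 8.72 in *bli-1* replicate 2. The *bli-1* arrays lay close together, and both lay below the lower Col-0 array by at least 1.75 log2 units. The log2 difference was −2.48 (standard error 0.43), which is 5.56-fold lower signal in *bli-1*.

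AT4G33560 had log2 signals of 11.37 and 10.45 in Col-0 and of 8.40 and 8.02 in *bli-1*. Its log2 difference of −2.70 (standard error 0.34) was the most negative of the 10 genes and equals a 6.5-fold difference. The gap between the lower Col-0 array and the higher *bli-1* array was 2.05 log2 units, also the widest of the 10.

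*ADH1* and *PDC1* encode the enzymes of ethanol fermentation. Pyruvate decarboxylase (*PDC1*, AT4G33070) makes acetaldehyde from pyruvate, and alcohol dehydrogenase (*ADH1*, AT1G77120) reduces it to ethanol. *PDC1* had log2 signals of 10.99 and 9.67 in Col-0 and of 8.18 and 7.58 in *bli-1*. The genotypes did not overlap, and the log2 difference was −2.45 (standard error 0.48), or 5.46-fold. *ADH1* had log2 signals of 11.87 and 10.49 in Col-0 and of 8.93 and 8.77 in *bli-1*. Here too the genotypes did not overlap, with a log2 difference of −2.33 (standard error 0.46), or 5.03-fold. The 3 probes of *ADH1* gave log2 differences of −2.43, −2.41 and −2.14.

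*SUS4* (AT3G43190) encodes a sucrose synthase, which splits sucrose at a lower energy cost than invertase. Its log2 signals were 9.26 and 8.31 in Col-0, as against 7.27 and 7.29 in *bli-1*, so the Col-0 arrays lay apart and above the nearly equal *bli-1* arrays. The log2 difference was −1.51 (standard error 0.33), or 2.85-fold. This mean over 4 probes hides a split, since the brighter probes gave log2 differences of −2.47 and −1.98 and the dimmer ones −0.87 and −0.72. The dimmest of the 4 gave a 1.65-fold difference and was not well above background on either *bli-1* array. The next was above background on 1 *bli-1* array, replicate 2, where it read 102, under that array's lower quartile of 129.5. Before correction and normalization the dimmest probe read 77 and 37 intensity units in Col-0, as against 23 and 64 in *bli-1*.

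*HB1* (AT2G16060) encodes a class 1 phytoglobin, which scavenges nitric oxide in hypoxic cells. It had log2 signals of 12.51 and 11.31 in Col-0 and of 9.96 and 10.19 in *bli-1*. The log2 difference was −1.84 (standard error 0.41), or 3.58-fold, with no overlap of the genotypes. Its 2 probes differed by −2.08 and −1.59 log2 units. On its dimmer probe the *bli-1* arrays were 0.66 log2 units apart, at 8.53 and 9.19.

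**Figure D2:**
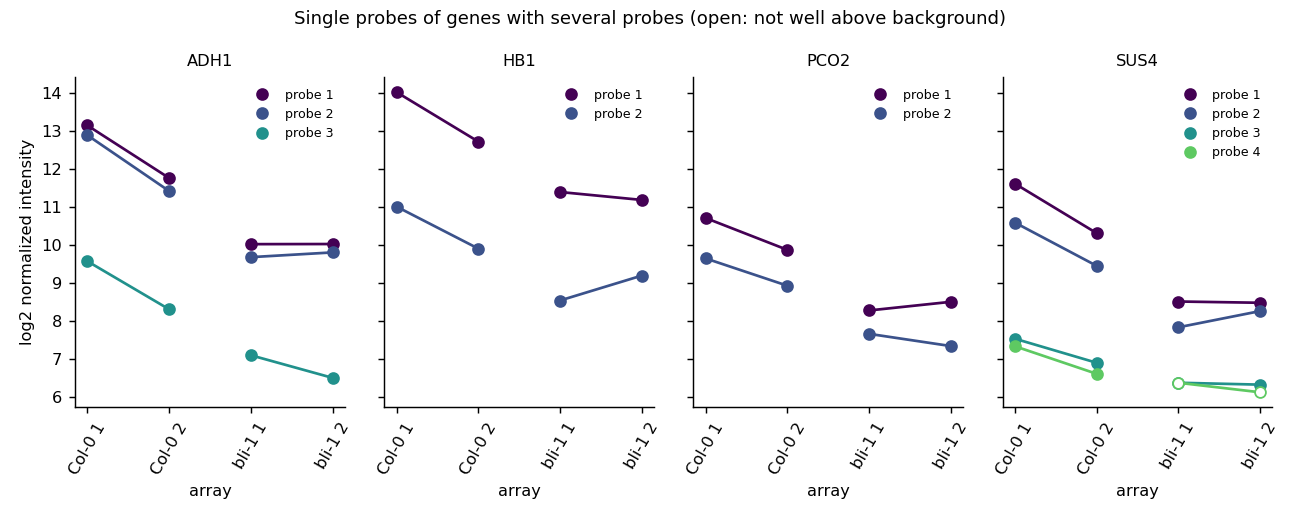
The log2 normalized intensity (y axis) of every probe of *ADH1*, *HB1*, *PCO2* and *SUS4* is plotted by array (x axis), with lines joining replicates of 1 genotype and open points for spots not well above background. The *ADH1* probes keep 1 pattern with log2 differences from −2.43 to −2.14, while those of *SUS4* range from −2.47 to −0.72 where signal is near background.

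*PCO1* and *PCO2* encode the plant cysteine oxidases that are induced by hypoxia. *PCO2* (AT5G39890) had log2 signals of 10.17 and 9.40 in Col-0 and of 7.96 and 7.92 in *bli-1*. Its log2 difference was −1.84 (standard error 0.28), or 3.59-fold, and its 2 probes gave −1.90 and −1.79. *PCO1* (AT5G15120) had log2 signals of 9.30 and 8.93 in Col-0 and of 7.79 and 7.35 in *bli-1*. Its log2 difference was −1.54 (standard error 0.22), or 2.92-fold, and its Col-0 replicates were closer together than those of *PCO2*. Neither gene overlapped between the genotypes.

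*HRA1* (AT3G10040) encodes a trihelix factor that restrains RAP2.12, and *LBD41* (AT3G02550) a factor with a LOB domain. *HRA1* had log2 signals of 9.74 and 9.17 in Col-0 and of 8.17 and 8.29 in *bli-1*, a log2 difference of −1.22 (standard error 0.22) or 2.33-fold, without overlap. *LBD41* had log2 signals of 7.29 and 7.08 in Col-0 and of 6.67 and 6.28 in *bli-1*, a log2 difference of −0.71 (standard error 0.19) or 1.64-fold. Its separation rests on the normalization between arrays. Before correction and normalization the probe of *LBD41* read 76 and 71 intensity units in Col-0, as against 43 and 93 in *bli-1*, so that *bli-1* replicate 2 was the highest of the 4 arrays and became the lowest. When scaled to the 75th percentile of each array in place of quantile normalization, *LBD41* had log2 signals of 7.64 and 6.71 in Col-0 and of 6.12 and 6.56 in *bli-1*, still without overlap but with the *bli-1* arrays in the other order. None of the 10 genes overlapped between genotypes under the 7 ways of obtaining the signal that were tried. With the main processing both *bli-1* arrays lay below both Col-0 arrays for 23% of all genes and transcripts. This share was not counted for the other ways, and the choice of the genes used this contrast, so nothing is read from the count.

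The 10 genes also differed between the Col-0 replicates. Both Col-0 arrays entered the choice of the genes, so the counts below are a description and nothing is read from them. Col-0 replicate 1 was above Col-0 replicate 2 for 10 of 10, with a median log2 difference of 0.94, against −0.01 over all genes and transcripts. It was at least 1.5-fold above for 7 of the 10, against 1.2% of all. *ADH1* had the widest gap at 1.37, followed by *PDC1* at 1.32, AT4G10270 at 1.26, *HB1* at 1.20, *SUS4* at 0.95, AT4G33560 at 0.93 and *PCO2* at 0.78. *HRA1* was at 0.57, *PCO1* at 0.37 and *LBD41* at 0.21.

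Beside the difference between genotypes, the gap between the Col-0 replicates amounted to between 23.9% for *PCO1* and 65.5% for *HB1*. Between the *bli-1* replicates the median absolute log2 difference of the 10 genes was 0.20, close to the 0.22 of all genes and transcripts. In Col-0 it was 0.94 against 0.11. With 1 array on each side no test of the Col-0 gap was possible. The median gap stayed between 0.94 and 1.1 under the 7 ways of obtaining the signal, but the median over all genes and transcripts reached 0.53 with 75th percentile scaling after normexp, where the 10 genes had 1.03.

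**Figure D3:**
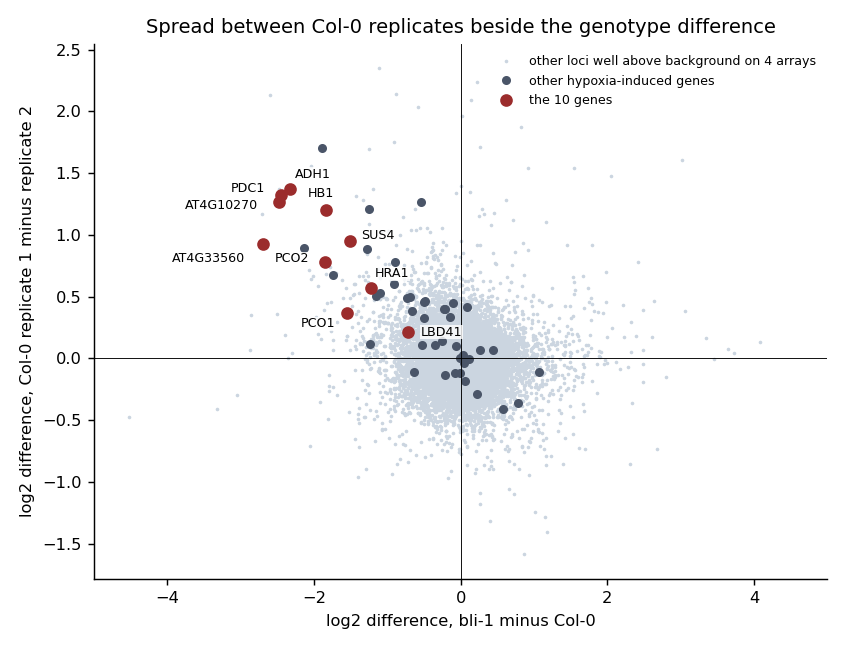
The log2 difference between Col-0 replicates 1 and 2 (y axis) is plotted against the log2 difference between *bli-1* and Col-0 (x axis) for the 10 genes (red), other hypoxia-induced genes (dark grey) and the remaining loci that were well above background on all 4 arrays (light grey). The 10 genes lie at the upper left, from 0.21 for *LBD41* to 1.37 for *ADH1* on the y axis, and most other loci lie near 0 on both axes.

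The size of the difference thus depended on which Col-0 array was used, and its direction did not. Without Col-0 replicate 1 the median log2 difference of the 10 genes was −1.47, and without Col-0 replicate 2 it was −2.29. AT4G10270 then had −1.89 and −3.07, *ADH1* −1.69 and −2.96, *PDC1* −1.86 and −3.04, and *HB1* −1.25 and −2.42. *PCO1* moved least in proportion, from −1.39 to −1.66 over the 4 arrays left out in turn. Only *LBD41* went under 1.5-fold, with −0.56 without *bli-1* replicate 2.

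Within the slide that held 3 arrays, *bli-1* replicate 2 was below the mean of the Col-0 arrays for each gene. The log2 difference was −2.57 for AT4G10270, −2.89 for AT4G33560, −2.41 for *ADH1*, −2.75 for *PDC1* and −0.91 for *LBD41*. *bli-1* replicate 1, on the other slide, was also below the lower Col-0 array for each gene, with log2 differences from that array of −1.75 for AT4G10270 and −0.41 for *LBD41*. Slide and genotype could not be told apart in that array. With the slide as a block limma called 10 of the 10 genes lower, and 7.27% of all genes and transcripts. Without *bli-1* replicate 1 it called 9, and 6.2% of all, whereas it called 0 of the 10 with all arrays and no block (0.0175% of all). In the block fit and in that without *bli-1* replicate 1 the spread comes from the Col-0 arrays and the prior of the fit, and nothing is read from these counts.

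Markers of root and leaf tissue also differed between the arrays. The log2 of the summed signals of the 10 root markers was 14.30 and 14.13 in Col-0, as against 14.71 and 13.66 in *bli-1*. Such a sum is set mostly by the brightest markers. The median log2 difference of the 10 root markers between the genotypes was −0.37. Of these markers 2 of 10 were lower at an unadjusted p below 0.05 and 1.5-fold (2.69% of all), *EXPA7* with a log2 difference of −1.18 and *NRT2.1* with −1.0. All 10 root markers were higher in Col-0 replicate 1 than in replicate 2, by a median of 0.18 log2 units, and higher in *bli-1* replicate 1 than in replicate 2, by a median of 0.97, where the hypoxia genes differed by a median of 0.17. The log2 of the summed signals of the 8 leaf markers was 18.99 and 19.14 in Col-0, as against 19.06 and 19.15 in *bli-1*. Of the 8 leaf markers, 6 were higher and 2 lower in *bli-1*. Their median log2 difference between the genotypes was 0.28, against −0.01 over all genes and transcripts. Only *LHB1B1* passed the unadjusted threshold, with higher signal (2.48% of all). It was higher in *bli-1* by 0.93 (adjusted p = 0.490 from limma). Its log2 difference between Col-0 replicates 1 and 2 was about as large, at −0.94. The part of tissue composition in the hypoxia gene differences was not tested.

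A list of 41 further genes known to be induced by hypoxia was compared to see whether the rest of the response moved alike. Of these, 30 were lower and 11 higher in *bli-1*, and the number lower lay between 25 and 31 under the alternative settings. The median log2 difference was −0.25, against −0.01 over all genes and transcripts. limma called 0 of the 41 in either direction at an adjusted p below 0.05 and 1.5-fold, whereas 0.0175% of all genes and transcripts were called lower and 0.0962% higher. The threshold without adjustment, a p below 0.05 and 1.5-fold, was passed by 11 with lower signal (2.69% of all) and by 2 with higher signal (2.48% of all). Without Col-0 replicate 1 the count of 11 went to 4, and without *bli-1* replicate 2 it also went to 4.

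*SAD6* (AT1G43800), a desaturase gene, had log2 signals of 9.91 and 9.02 in Col-0 and of 7.44 and 7.22 in *bli-1*. The genotypes did not overlap, and limma gave a log2 difference of −2.14 with a standard error of 0.32 and an adjusted p = 0.141. AT5G10040 had 9.16 and 7.45 in Col-0, as against 6.60 and 6.22 in *bli-1*, with the widest gap between the Col-0 replicates in the list, 1.71 log2 units. Its log2 difference was −1.90 (standard error 0.58, adjusted p = 0.383 from limma). It became −1.16 without Col-0 replicate 1 and −2.62 without Col-0 replicate 2.

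AT4G39675 had log2 signals of 11.46 and 10.78 in Col-0 and of 9.66 and 9.11 in *bli-1* (log2 difference −1.73, adjusted p = 0.184 from limma). AT1G19530 had 9.45 and 9.33 in Col-0, as against 8.05 and 8.24 in *bli-1*. With replicates this close its log2 difference of −1.24 had a standard error of 0.14 and the lowest adjusted p of the list (0.096 from limma). AT5G66985 and AT2G17850 differed by −1.27 and −1.25 log2 units. These 6 were the most negative of the 11, and the other 5 were AT1G33055, *HRU1*, *ACO1*, *NIP2;1* and AT3G27220, between −1.16 and −0.69.

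Higher signal in *bli-1* was found for *EXL1* (AT1G35140), an EXORDIUM-like gene of the carbon starvation response, with log2 signals of 7.55 and 7.66 in Col-0 and of 8.98 and 8.37 in *bli-1* (log2 difference 1.07, adjusted p = 0.251 from limma). AT3G10020 had 10.73 and 11.09 in Col-0, as against 11.46 and 11.92 in *bli-1* (log2 difference 0.78, adjusted p = 0.356 from limma). It lies 2 measured loci away from *HRA1*, which was lower in *bli-1*. The inducible ERF group VII genes *HRE1* and *HRE2* had log2 differences of −0.67 (adjusted p = 0.528 from limma) and −0.49 (adjusted p = 0.496 from limma) and did not pass. Col-0 replicate 1 was above replicate 2 for 29 of the 41, at least 1.5-fold for 8 (1.2% of all) and with a median of 0.33, and Col-0 replicate 2 was at least 1.5-fold above replicate 1 for 0 of the 41 (0.455% of all).

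**Figure D4:**
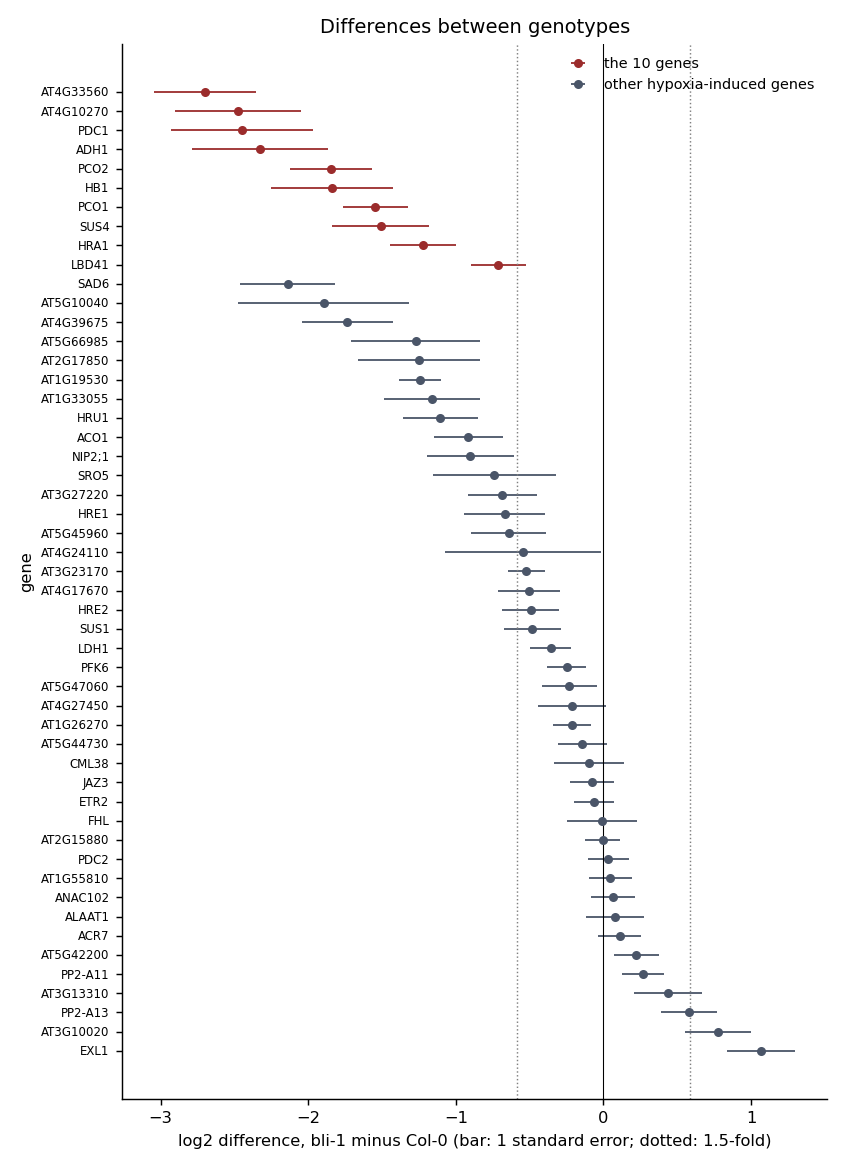
The log2 difference between *bli-1* and Col-0 (x axis) with its standard error is plotted for the 10 genes (red) and 41 other hypoxia-induced genes (grey), sorted within each set, and dotted lines mark 1.5-fold. The 10 genes run from −2.70 to −0.71 and the other genes from −2.14 for *SAD6* to 1.07 for *EXL1*.

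The genes that sense oxygen and control the response were looked at next. Of 13 genes of oxygen sensing and the N-degron pathway, 0 were called (0.0175% of all were called lower and 0.0962% higher) and 1 passed the unadjusted threshold, with higher signal (2.48% of all). This was *RAP2.3* (AT3G16770), an ERF group VII gene, with log2 signals of 13.75 and 14.00 in Col-0 and of 15.62 and 14.99 in *bli-1*. The genotypes did not overlap, and the log2 difference was 1.43 (standard error 0.25, adjusted p = 0.179 from limma). *RAP2.12* and *RAP2.2* had log2 differences of 0.23 and 0.31, and *PRT6* of 0.10. *PCO3*, *PCO4* and *PCO5*, relatives of *PCO1* and *PCO2*, had 0.06, 0.08 and 0.35. The median of the 13 was 0.10.

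Close relatives of the fermentation genes were then compared. Of 15 genes of fermentation and sucrose cleavage families, 0 were called (0.0175% of all were called lower and 0.0962% higher). Their median log2 difference was −0.01. *PDC2* had 0.03, where *PDC1* had −2.45. *LDH1*, a lactate dehydrogenase gene, had −0.36 and *ALAAT1*, an alanine aminotransferase gene, 0.08. Among the sucrose synthase genes *SUS1* had −0.48 and *SUS3* 0.73 (adjusted p = 0.484 from limma), where *SUS4* had −1.51. *SUS3* was the only 1 of the 15 to pass the unadjusted threshold (2.48% of all were higher at it), and its log2 difference was 0.34 without *bli-1* replicate 1 and 1.12 without *bli-1* replicate 2. The other phytoglobin genes *HB2* and *GLB3* had −0.10 and 0.05, where *HB1* had −1.84. Differences between such relatives were not tested.

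Of 4 other genes of the wound-responsive family, 0 reached 1.5-fold in either direction with the main processing. Over all genes and transcripts 3.48% were at least 1.5-fold lower and 4.93% higher. AT4G10265, the next measured locus to AT4G10270, had log2 signals of 7.09 and 6.79 in Col-0 and of 6.44 and 6.33 in *bli-1*, a log2 difference of −0.56 (adjusted p = 0.353 from limma) without overlap. This separation rests on the normalization between arrays. Before correction and normalization its probe read 57 and 45 intensity units in Col-0, as against 26.5 and 103 in *bli-1*. The array of *bli-1* replicate 2 was thus the highest of the 4 and became the lowest. AT4G10265 is dim and had −0.90 with an offset of 16, −2.05 with local background subtracted and −1.24 with the processed signal. With the slide as a block it had −0.61 and was called, in a fit that called 7.27% of all genes and transcripts lower. Since the spread in that fit comes from the Col-0 arrays and the prior of the fit, nothing is read from the call. AT2G14070 had −0.45 in the main comparison (adjusted p = 0.440 from limma) as the mean of 2 probes. One of these was above background on all 4 arrays and gave −0.72, and the other was above background on 0 arrays and gave −0.17. Its log2 difference was −0.64 with an offset of 16, −1.33 with local background subtracted, −0.62 with normexp and 75th percentile scaling and −0.00051 with the processed signal. AT4G28240 and AT4G05070, with log2 differences of 0.03 and −0.04, had signals that overlapped between genotypes, and these small values changed sign with the processing.

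Among markers of wounding and low energy that passed the unadjusted threshold, 1 was lower and 7 were higher in *bli-1*, of 15 genes in all (2.69% and 2.48% of all genes and transcripts). Of 11 jasmonate and wound markers *AOS*, the allene oxide synthase gene, was lower at the unadjusted threshold, with a log2 difference of −0.66 (adjusted p = 0.197 from limma). Higher at that threshold were *JAZ7* by 1.25, *JAZ1* by 0.99, *CORI3* by 0.98 and *JAZ5* by 0.92, with the lowest adjusted p for *JAZ1* (0.120 from limma), and 0 of the 11 were called. Of 4 low-energy markers 3 were higher at the unadjusted threshold, the asparagine synthetase gene *ASN1* by 1.16, *SEN1* by 1.12 and *DIN10* by 0.59, and 0 were called. Of 11 genes of the mitochondrial dysfunction response 1 passed the unadjusted threshold, with higher signal (2.48% of all). This was *UPOX*, with a log2 difference of 1.45 (adjusted p = 0.099 from limma), and 0 of the 11 were called. Over all genes and transcripts 0.0175% were called lower and 0.0962% higher, so nothing is read from 0 called in lists this small. The 3 genes of the HIG1 family of hypoxia-responsive proteins had −0.13, 0.10 and 0.33.

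**Figure D5:**
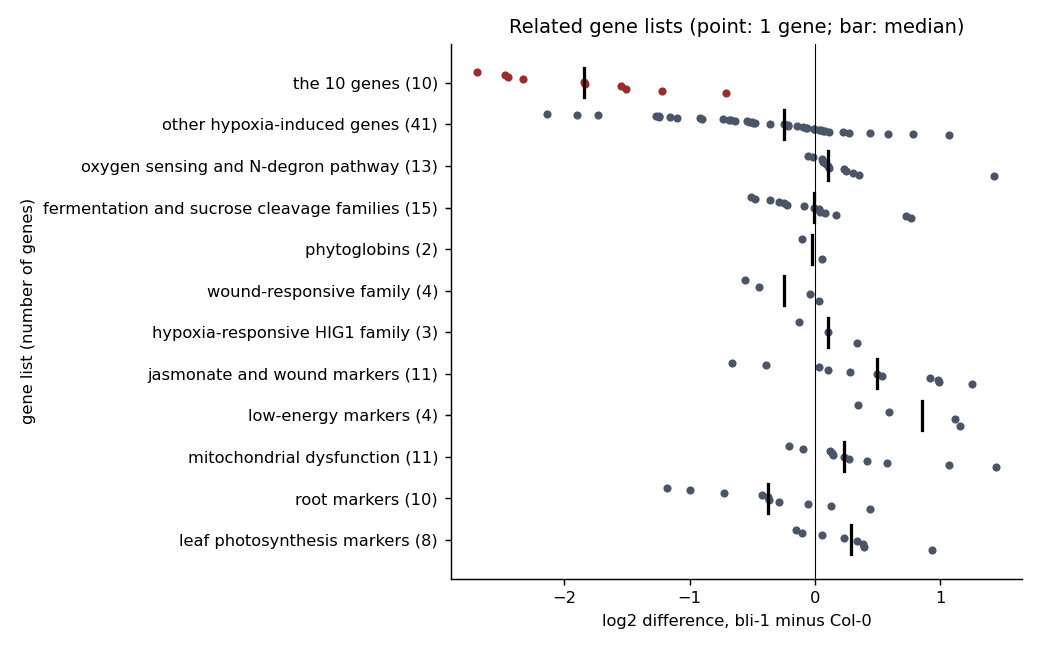
The log2 difference between *bli-1* and Col-0 (x axis) of each gene (points) is plotted for the 10 genes and the related lists (y axis), with a bar at each median. The medians are −1.84 for the 10 genes, −0.25 for the other hypoxia-induced genes, 0.10 for oxygen sensing and −0.01 for the fermentation and sucrose cleavage families.

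The loci whose pattern over the 4 arrays was most like that of AT4G10270 were found by the root mean square difference of centred log2 signals among 20688 loci and transcripts. The nearest was *ADH1* at 0.083 log2 units, followed by AT1G12805 at 0.125, *PDC1* at 0.151, AT4G33560 at 0.177 and AT2G14247 at 0.181. AT1G12805 had log2 signals of 10.25 and 9.08 in Col-0 and of 7.0 and 6.92 in *bli-1*, and AT2G14247 had 11.59 and 10.22 in Col-0, as against 8.27 and 8.59 in *bli-1*. Both thus also had higher signal in Col-0 replicate 1 than in replicate 2. *HB1* held place 14, *PCO2* 17, *SUS4* 29, *PCO1* 36, *HRA1* 76 and *LBD41* 418, and with 4 arrays such a likeness is a description only.

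Neighbours on the chromosome were compared as well. Of 60 measured loci within 3 places on either side, 3 had at least 1.5-fold less signal in *bli-1* (3.48% of all) and 1 had at least 1.5-fold more (4.93% of all), and their median log2 difference was 0.05. AT4G33550, next to AT4G33560, had −0.77, AT4G33040, near *PDC1*, −0.75 and *PIN6*, next to *ADH1*, −0.59.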

How the data were processed

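The authors deposited, for each array, the scanner output of Feature Extraction 11.0.1.1, an intensity for each spot and its local background that is not normalized between arrays. Their methods state background correction and quantile normalization in limma. Median spot intensities were corrected here with normexp (offset 50) in limma 3.58.1 (R 4.3.3), control spots were left out, outlier spots set to missing, and arrays quantile normalized and log2 transformed. Signals were averaged over spots of a probe and over probes of a locus, which gave 34290 genes and transcripts. A locus of the TAIR10.1 annotation was found for 34432 of the 35703 spots named by RefSeq accessions. Such averaging and the offset shrink differences of dim genes, and with 4 arrays the number of arrays limits the precision.

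Genotypes were compared with lmFit and eBayes, with Benjamini-Hochberg adjustment over all 34290. A gene was called at an adjusted p below 0.05 and at least 1.5-fold, and the unadjusted threshold is p below 0.05 with the same fold. An exact permutation test of 2 against 2 arrays cannot go below 0.333. The fit was run on simulated data with independent noise drawn from its own prior. Such data hold no slide or array differences, so nothing is read from them about these arrays. The genes and lists were chosen with earlier results of these data known. Named were the 10 genes, *BLI*, the wound-responsive list, up to 6 genes per other list and direction at the unadjusted threshold, and the 5 loci nearest to AT4G10270. Other relatives and neighbours were named after their values were seen. Alternatives changed the background correction, scaling, dim probes, outliers, probe choice, eBayes options, slide, pairing and arrays. Promoter motifs were not analysed here.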

Additional observations from a re-analysis of the deposited data

How the results depend on the processing

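All 10 genes kept a lower signal in *bli-1* under every alternative run, and 10 were at least 1.5-fold lower except without *bli-1* replicate 2, so that leaving out arrays gave 9 to 10. limma called 0 of the 10 in the main comparison, where 0.0175% of all genes and transcripts were called lower. It called 10 with the slide as a block, where 7.27% of all were called lower. In the block fit the spread comes from the Col-0 arrays and the eBayes prior, and nothing is read from its count.

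Over all loci, 34 were called, and 9 with an offset of 16, 0 with local background subtracted, with the processed signal or with normexp and 75th percentile scaling, 99 without dim probes, 104 with the trend and robust options, 3987 with the slide as a block and 0 with the replicate block. Leaving out arrays gave 0 to 3551. Of the 41 further hypoxia-induced genes, 11 were lower at the unadjusted threshold, and 7 with background subtracted, 7 with the processed signal, 5 with normexp and 75th percentile scaling, and 4 to 14 with arrays left out. Called were 0, but 16 with the slide as a block, 13 of them lower, where 7.27% of all genes and transcripts were called lower. Nothing is read from that count, as the spread in the block fit comes from the Col-0 arrays and the eBayes prior. With the replicate number as a block, 0 of the 10 genes and 0 of the 41 were called and 12 of the 41 were lower at the unadjusted threshold. Deviations of same-numbered arrays correlated at 0.073, and with 2 arrays in each genotype the numbers were not taken to pair them.

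The log2 difference of *SUS4* was −2.67 with background subtracted, −2.36 with the processed signal and −2.47 for its brightest probe. That of *PCO1* was −1.99 with background subtracted, and that of *LBD41* was −1.09 with an offset of 16, −2.23 with background subtracted and −1.20 with the processed signal. Scaling moved the median of all genes to 0.27 with the processed signal and to −0.12 with normexp, where the 10 genes had medians of −2.26 and −1.84. AT4G28240 changed sign to −0.18 with the processed signal, and leaving out arrays gave −0.011 to 0.067, with −0.0066 where *bli-1* replicate 2 was missing. AT4G05070 changed sign to 0.21 with the processed signal and 0.19 for its brightest probe, and leaving out arrays gave −0.25 to 0.15, with 0.02 where *bli-1* replicate 2 was missing. The cause of these changes was not tested. Where 1 array of a genotype was left, its spread was taken from the other genotype.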
